A study of Mus musculus with 8 samples.

Results

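Acetylation of histone H3 at lysine 27 (H3K27ac) was compared on the autosomes between 2 consecutive stages of mouse spermatogenesis, pachytene spermatocytes (PS) and round spermatids (RS). The loci were taken from the deposited peak lists of 4 wild-type samples, 2 of PS and 2 of RS, restricted to chromosomes 1 to 19. Summit rows with the same start and end were joined into a single peak, and a region of a stage was a merged interval that held a peak of both replicates. PS had 26333 such regions and RS had 26489, and together they made 33842 autosomal loci. Of these loci, 15473 (45.7%) were kept, meaning that a PS region and an RS region overlapped, 7938 (23.5%) were lost because no RS region overlapped the PS region, and 10431 (30.8%) were gained in RS.

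The cells came from testes of adult C57BL/6 mice, in which PS and RS were separated by sedimentation through a gradient of bovine serum albumin. H3K27ac was measured by ChIPmentation, a chromatin immunoprecipitation in which a transposase adds the sequencing adapters, in wild-type cells only. RNA-seq of the same 2 stages was available for Rnf8- and Scml2-dKO mice, which lack both the ubiquitin ligase RNF8 and the Polycomb protein SCML2, with 2 samples per stage, also adult and C57BL/6. The study addressed how both proteins act on chromatin of the sex chromosomes, which are not described here.

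H3K27ac is placed by the acetyltransferases CBP and p300 and marks active promoters and active enhancers. Pachytene spermatocytes are meiotic cells in which homologous autosomes are synapsed and crossovers form, and they transcribe a large testis-specific program in which the factor A-MYB (Mybl1) has a central place. Round spermatids are the haploid cells that follow meiosis. They build the acrosome and the flagellum and transcribe the transition proteins and protamines that later replace most histones.

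Sequence features that differed between the classes of loci are shown first. Each window holds 300 bases centred on the strongest summit of a locus in the mm10 (GRCm38) assembly. In the first set, CG dinucleotides are in capitals, because promoters that became more acetylated in RS held fewer of them than kept promoters as a whole. Promoters that became less acetylated held about as many as kept promoters as a whole. Izumo3 and Adam21 are kept promoters that were higher in RS, Spata31d1b is a gained promoter, and Prok2, Slc25a21 and Slc47a2 are kept promoters that were lower in RS.
Izumo3, chr4:92146757-92147056, plus strand: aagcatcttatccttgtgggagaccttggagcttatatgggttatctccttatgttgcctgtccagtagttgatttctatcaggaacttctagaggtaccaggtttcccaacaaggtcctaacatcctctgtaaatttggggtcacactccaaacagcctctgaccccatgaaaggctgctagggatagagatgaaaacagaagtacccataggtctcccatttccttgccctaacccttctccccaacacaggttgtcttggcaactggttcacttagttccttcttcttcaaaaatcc
Adam21, chr12:81567915-81568214, plus strand: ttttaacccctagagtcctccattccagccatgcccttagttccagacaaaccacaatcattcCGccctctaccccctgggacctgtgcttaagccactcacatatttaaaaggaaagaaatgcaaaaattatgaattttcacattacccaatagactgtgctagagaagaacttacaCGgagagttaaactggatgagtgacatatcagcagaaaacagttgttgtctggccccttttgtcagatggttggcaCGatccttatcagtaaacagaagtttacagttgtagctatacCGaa
Spata31d1b, chr13:59712346-59712645, plus strand: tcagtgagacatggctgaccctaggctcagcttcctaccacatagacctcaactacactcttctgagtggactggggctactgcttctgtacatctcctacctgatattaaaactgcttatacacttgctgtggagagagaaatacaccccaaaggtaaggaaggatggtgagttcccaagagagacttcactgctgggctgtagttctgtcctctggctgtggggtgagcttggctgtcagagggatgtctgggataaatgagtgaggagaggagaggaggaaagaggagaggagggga
Prok2, chr6:99726051-99726350, plus strand: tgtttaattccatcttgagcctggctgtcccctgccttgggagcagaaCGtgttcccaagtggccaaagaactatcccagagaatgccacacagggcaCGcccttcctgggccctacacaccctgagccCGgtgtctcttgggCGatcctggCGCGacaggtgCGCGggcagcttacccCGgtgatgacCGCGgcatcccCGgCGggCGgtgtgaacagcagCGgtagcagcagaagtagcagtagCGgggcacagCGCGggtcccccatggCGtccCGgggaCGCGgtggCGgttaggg
Slc25a21, chr12:57196991-57197290, plus strand: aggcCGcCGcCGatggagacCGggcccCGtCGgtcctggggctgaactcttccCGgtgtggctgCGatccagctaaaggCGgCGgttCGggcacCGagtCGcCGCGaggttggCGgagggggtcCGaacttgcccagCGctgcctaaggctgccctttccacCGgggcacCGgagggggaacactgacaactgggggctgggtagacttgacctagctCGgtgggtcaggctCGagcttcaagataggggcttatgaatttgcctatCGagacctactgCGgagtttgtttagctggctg
Slc47a2, chr11:61342784-61343083, plus strand: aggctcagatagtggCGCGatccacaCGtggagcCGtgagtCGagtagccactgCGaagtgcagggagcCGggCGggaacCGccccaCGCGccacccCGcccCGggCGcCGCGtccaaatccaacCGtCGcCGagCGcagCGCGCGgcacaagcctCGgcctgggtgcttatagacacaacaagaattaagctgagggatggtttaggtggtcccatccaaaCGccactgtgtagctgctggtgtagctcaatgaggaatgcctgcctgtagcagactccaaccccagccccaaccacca

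The windows of Izumo3 and Spata31d1b hold 0 CG dinucleotides and that of Adam21 holds 4, against 23 in Prok2, 24 in Slc25a21 and 25 in Slc47a2. These windows were picked as examples and do not show the range of their groups. Other leading falls held fewer: 2 in 4930423M02Rik, 4 in B3galnt1, 11 in Fbp1 and 14 in Zfp389. Other leading rises held between 2 (4930431P03Rik) and 11 (Map3k7cl), and other leading gained promoters between 1 (Gm5901) and 15 (Tnfrsf13c). The next pair shows distal loci. The lost locus is intergenic with Speer2 as the nearest gene, and the letters CAACTG, the core that MYB factors recognise, are in capitals. The gained locus lies in an intron of Il34, and CG would be in capitals there but is found 0 times.
Speer2, chr16:69094540-69094839, plus strand: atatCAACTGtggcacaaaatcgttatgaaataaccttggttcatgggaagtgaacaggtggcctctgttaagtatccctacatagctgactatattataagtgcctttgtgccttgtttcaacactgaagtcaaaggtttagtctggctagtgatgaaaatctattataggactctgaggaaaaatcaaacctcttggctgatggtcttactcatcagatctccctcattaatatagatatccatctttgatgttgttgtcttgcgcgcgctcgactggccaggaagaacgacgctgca
Il34, chr8:110796808-110797107, plus strand: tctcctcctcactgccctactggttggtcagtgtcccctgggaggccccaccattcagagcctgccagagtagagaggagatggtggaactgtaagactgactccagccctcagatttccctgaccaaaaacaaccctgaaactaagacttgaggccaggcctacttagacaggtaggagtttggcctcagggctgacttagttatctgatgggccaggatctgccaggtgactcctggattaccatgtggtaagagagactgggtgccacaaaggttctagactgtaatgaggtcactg

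The 2 deposited PS lists held 38519 and 46177 autosomal peaks, out of 41095 and 49434 on all chromosomes, and the 2 RS lists held 72928 and 44726, out of 74919 and 45863. RS replicate 1 therefore stood apart, with a lower minimum (a fold enrichment of 2.85) than the other 3 samples (3.29 to 3.48), so results that rest on it are given with and without it. Fold enrichment is the ratio of the pileup of fragments at a peak to a constant background of the same sample, each with 1 added; it compares loci within a sample and does not measure a change that affects all loci alike. The stage labels were checked against defining genes. All 10 promoters of the PS marker list and all 10 of the RS list carried a kept region, so that both stages carried the mark at genes that define the other. Of the markers of other testis cells, 6 of 7 Leydig, 5 of 6 peritubular and vascular, and all 6 macrophage and blood promoters had no region in either stage. For Sertoli cells, 5 of 7 marker promoters had a region in PS and none in RS (Sox9 at fold enrichments of 5.35 and 7.67, Clu at 5.35 and 9.87), 1 was kept and 1 had no region. The part of Sertoli cells in the lost regions was not tested.

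Promoters were kept and distal loci turned over. Of the 26333 PS regions, 18395 (69.9%, 95% Wilson interval 69.3 to 70.4) overlapped an RS region. The share was 86.3% (85.7 to 86.9) for the 11590 regions that the deposited annotation places at a promoter, within 1 kb of a transcription start site. It was 64.5% for exons, 60.8% for upstream regions, 56.1% for introns and 53.0% (51.7 to 54.4) for intergenic regions. In the opposite direction, 60.6% of RS regions overlapped a PS region and 39.4% were gained. The share of RS regions already present in PS was 93.3% at promoters but 30.2% in introns. The intervals cover counting error over regions only; the spread between samples was larger. Of the peaks of PS replicate 1, 76.7% overlapped RS replicate 1, and of those of PS replicate 2, 56.0% overlapped RS replicate 2, and promoters exceeded intergenic peaks in both pairs (90.9% against 64.5%, and 76.3% against 47.3%). When each sample was limited to its 38519 strongest autosomal peaks, 84.9% of promoter and 50.6% of intergenic PS regions were kept.

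**Figure D1:**
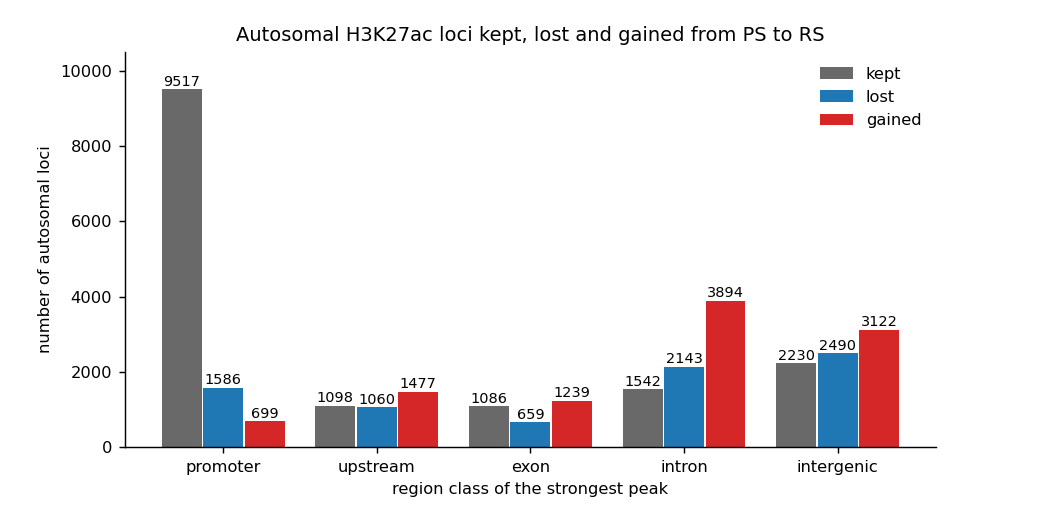
Number of autosomal loci (vertical axis) kept, lost and gained from PS to RS, by the region class of the strongest peak (horizontal axis), over 2 samples per stage. Promoters are mostly kept (9517 of 11802), whereas introns hold more gained (3894) than lost (2143) or kept (1542) loci.

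The make-up of the classes followed from this. Promoters formed 61.5% of kept loci, 19.98% of lost loci and 6.70% of gained loci, while introns and intergenic sequence together formed 24.4%, 58.4% and 67.3%. Of the 11802 promoter loci, 80.6% were kept, 13.4% were lost and 5.92% were gained. Of the 7579 intron loci, 20.3% were kept, 28.3% were lost and 51.4% were gained. Gained intron loci lay closer to a start site than lost ones, at a median of 17.6 kb against 24.9 kb, and gained intergenic loci lay farther away, at 77.3 kb against 62.0 kb.

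Many lost and gained loci were not silent in the other stage. Of the lost loci, 4732 (59.6%) had no peak in either RS replicate, 3016 had a peak in RS replicate 1 alone and 92 in RS replicate 2 alone. At lost promoters 588 of 1586 (37.1%) had no peak in RS, against 68.8% of lost intergenic loci. Of the gained loci, 7312 (70.1%) had no peak in either PS replicate, and this held for 390 of 699 gained promoters (55.8%). The median fold enrichment of lost regions was 5.35 and 6.03 in the PS replicates, against 9.88 and 10.4 for kept PS regions. The gap was wide at promoters, with 5.35 and 5.48 for lost against 16.5 and 17.5 for kept regions. It was small for intergenic regions (5.76 and 6.03 against 6.17 and 6.58) and introns (4.94 and 5.48 against 5.35 and 5.48). Gained regions had medians of 5.70 and 5.22 in the RS replicates, against 13.0 and 9.87 for shared RS regions.

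Promoters and other classes differed among regions of like strength in the upper part of the range. In the strongest quartile of PS regions, above a fold enrichment of 16.1, 99.3% of 5363 promoters were kept, against 64.6% of 512 intergenic regions and 69.8% of 245 intron regions. In the weakest quartile, below 5.07, promoters had the lowest share of the 5 classes (48.9%, 46.1 to 51.7). Their interval overlapped that of intergenic regions (50.8%, 48.5 to 53.2) but not that of exons (61.6%, 57.8 to 65.3). Introns had 53.7% and upstream regions 53.2%. The converse was different. In the strongest quartile of RS regions, above 13.1, between 98.8% and 99.9% overlapped a PS region in every class, intergenic regions included (99.4% of 721). Strong distal PS regions without an RS region were therefore numerous, whereas strong RS regions without a PS region numbered 3 at promoters, 5 in introns and 4 in intergenic sequence.

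**Figure D2:**
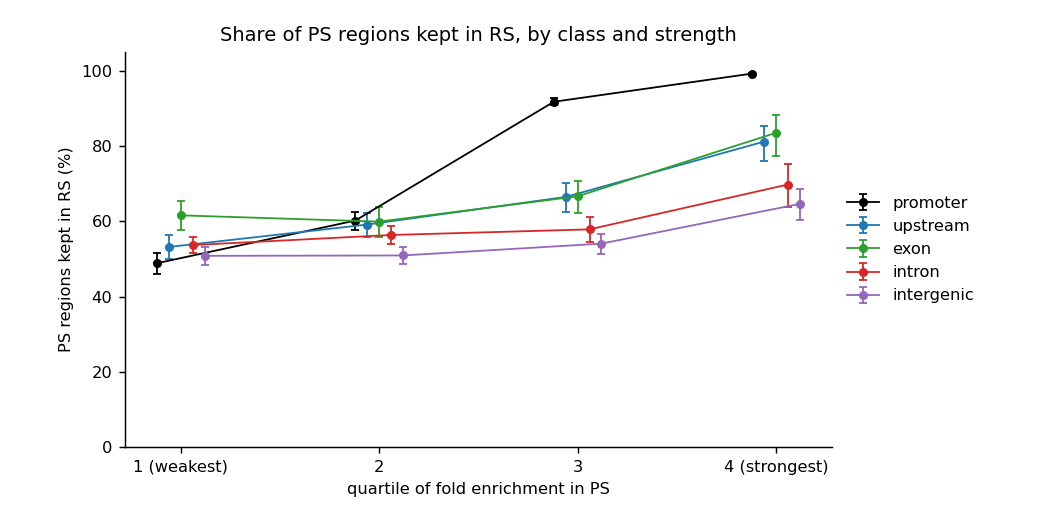
Percentage of PS regions that overlap an RS region (vertical axis) in quartiles of PS fold enrichment (horizontal axis), by region class; bars are 95% Wilson intervals over regions. Promoters rise from 48.9% to 99.3%, whereas intergenic regions go from 50.8% to 64.6%.

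The strongest loci lost without any RS peak were chosen by a rule on their mean fold enrichment. The leading lost promoter was that of Sult2a2, a sulfotransferase gene, at chr7:13731180-13732830, with fold enrichments of 31.3 and 37.8 in the PS replicates. Sgpp2, which encodes a sphingosine phosphate phosphatase, had 18.9 and 17.5, and Nkx6-1, a homeodomain factor of pancreas and neural tube, had 14.8 and 21.4. The other leading lost promoters belonged to 4933404K08Rik, 4930465A12Rik, 4933400L20Rik, 4930442J19Rik and Mira, with values between 11.5 and 24.7. Distal losses reached higher values. An intergenic locus nearest to Olfr347 (chr2:36694395-36694798) had 41.6 and 47.7, one nearest to Mtpn (chr6:35459999-35461705) had 35.0 and 45.5, and those nearest to Speer2 and Insr both had 33.3 and 39.5. Repeat-masked bases formed 95% of the Sult2a2 window, against 0% to 17% in the windows of the other leading lost promoters. Sult2a2 had an RPKM of 0 in each dKO RNA sample. Among the distal losses, repeat-masked bases formed 74.7% of the Olfr347 window and 94.3% of the Insr window, against 6.33% at Mtpn and 14.3% at Speer2. The part of repeats in these losses was not tested.

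Gained loci were weaker. Olfr128, an olfactory receptor gene at chr17:37923080-37923978, had 12.6 and 10.4 in the RS replicates, and Spata31d1b, of a family of spermatid proteins, had 10.6 and 10.4. Adam6a, a sperm surface protein needed for fertility, had 8.54 and 9.29. Gm9839, Gm5415, Tnfrsf13c, Ccl26 and Gm5901 completed the leading gained promoters, with values between 6.97 and 13.0. The leading gained distal loci lay nearest to Speer4d (14.2 and 9.29), Ap4e1 (12.2 and 10.4), Il34 (11.4 and 9.87) and Slit2 (11.4 and 9.87).

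Levels at the 15473 kept loci were compared with limma on the log2 fold enrichment of the strongest peak, centred on the median of the kept loci of each sample. Without centring the median of RS lay 0.11 below that of PS on the log2 scale, and changes are given relative to that shift. A locus was called at an adjusted p under 0.05 and a fold of at least 1.5. RS was higher at 4099 loci (26.5% of those tested) and lower at 3992 (25.8%), and both RS values lay outside the range of both PS values at 12507 (80.8%). Leaving out any 1 of the samples, RS replicate 1 included, gave 3993 to 4048 loci higher and 3821 to 4053 lower. Replicates of a stage correlated across loci at r = 0.957 for PS and 0.930 for RS, and samples of different stages at 0.46 to 0.50; these are descriptions across loci, which are not independent. The labels do not say that the samples came from separate animals, so p-values measure the spread between these samples, and an exact permutation test of 2 against 2 cannot give a p below 0.333.

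Among loci with a region in both stages, the direction differed by class. Loci without an RS region counted as lost and those without a PS region as gained, so neither entered this comparison. How far this shaped the shares was not tested. At the 9517 kept promoters, 987 (10.4%) were higher in RS and 2899 (30.5%) were lower, with a median log2 change of -0.31. Their median fold enrichments were 16.9 and 18.1 in the PS replicates and 15.1 and 11.03 in the RS replicates. At the 1542 kept intron loci, 56.0% were higher and 16.5% lower, with a median change of 0.80 and median fold enrichments of 6.17 and 6.58 in PS against 10.6 and 8.71 in RS. Intergenic (53.9% higher, 18.2% lower) and exon loci (54.3% and 16.4%) had medians of 0.78, and upstream loci (41.7% and 23.1%) had 0.27. The distribution at loci outside promoters had a second mode: the fullest bin of intron and intergenic loci, from 1.2 to 1.3, held 8.83% of them. The promoter distribution had its main mode below 0 and a small one at the same place, where the bin held 1.42%. The difference between classes was also seen among loci of equal mean level, with 14.8% of promoters and 50.1% of other loci higher in the weakest quartile and 9.62% against 51.5% in the third. In the strongest quartile it was smaller, with 5.70% of promoters and 24.5% of other loci higher, and the median of the other loci there was -0.10. In the weakest quartile 18.9% of promoters and 9.75% of other loci were lower, and in the strongest 28.9% and 33.6%.

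**Figure D3:**
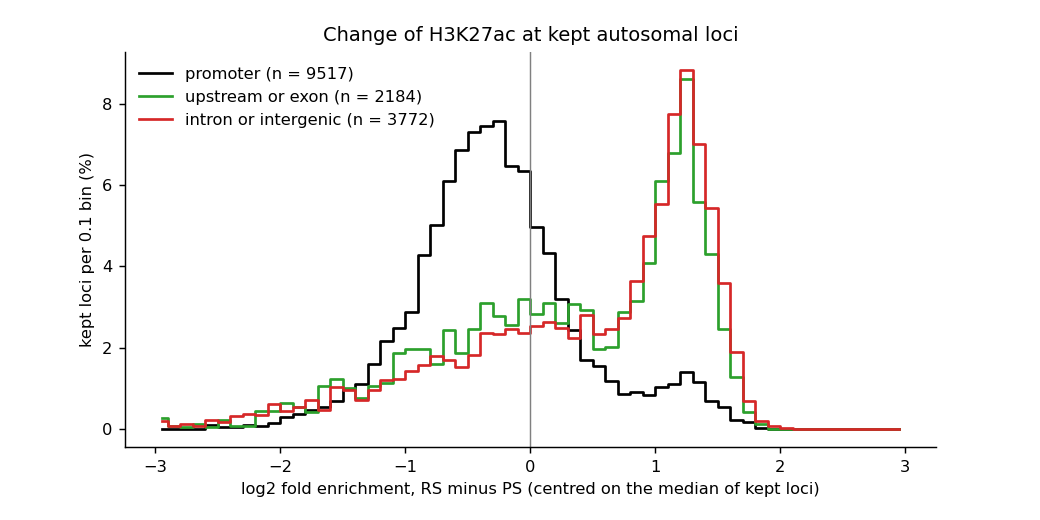
Distribution of the log2 change in fold enrichment from PS to RS at kept loci (horizontal axis, bins of 0.1, centred on the median of kept loci) as a percentage of each class (vertical axis). Promoters (9517) peak below 0, and loci outside promoters have a separate peak between 1.2 and 1.3.

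The promoters with the largest rise included Izumo3, a sperm protein of the family that mediates gamete fusion. Its fold enrichments were 4.53 and 3.29 in PS and 12.2 and 12.8 in RS, a log2 change of 1.80 ± 0.24 (SE; limma, adjusted p = 1.08e-08). Adam21, a member of the ADAM family of sperm surface proteins, went from 4.53 and 3.84 to 15.1 and 12.2, a change of 1.81 ± 0.22. The RS values of both genes lay far above their PS values and close to each other. The other leading rises, at 4933429K18Rik, 4930431P03Rik, Map3k7cl, Ankdd1b, 1700015E13Rik and 4933400F21Rik, were between 1.77 and 1.81.

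The largest fall was at Zfp389, a zinc finger gene at chr13:21505424-21506943. Its fold enrichments were 42.4 and 47.1 in PS and 6.51 and 5.22 in RS, a log2 change of -2.83 ± 0.17 (limma, adjusted p = 3.36e-19). Prok2, a secreted signalling protein, went from 42.0 and 49.9 to 7.73 and 6.39, a change of -2.60 ± 0.16. Slc25a21 and Slc47a2 encode membrane transporters and fell by 2.56 and 2.53 on the log2 scale. Fbp1, B3galnt1, 4930578E11Rik and 4930423M02Rik followed with log2 changes between -2.56 and -2.52.

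Genes of sperm structures were examined as lists, in which a promoter counts as kept when a kept locus lies within 1 kb of a start site of the gene. Over all 22283 autosomal genes, 10831 had a kept promoter, of which 9.54% were higher in RS and 30.4% lower, with a median change of -0.31. Of 35 genes of the acrosome and fertilization, 33 were kept, 1 was gained and 1 had no region; 18 of the 33 rose and 9 fell, with a median of 0.77 (0.66 to 0.89 over 11 other settings). Acrv1, an acrosomal vesicle protein, had fold enrichments of 7.82 and 6.58 in PS and 19.9 and 17.4 in RS, a log2 change of 1.48 ± 0.20 (limma, adjusted p = 8.58e-09). Izumo1, the sperm ligand for gamete fusion, went from 6.17 and 6.58 to 10.99 and 9.29, a rise that was not called with loess normalization. Spaca1, an acrosomal membrane protein, went from 12.8 and 17.0 to 27.7 and 16.8, so its groups overlapped, and its rise was not called under 4 of the other settings. Acr, which encodes the protease acrosin, had 27.6 and 26.9 against 35.8 and 37.2 and did not reach the fold of 1.5. Spam1, a sperm hyaluronidase, had no peak in PS and 9.76 and 6.97 in RS.

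The acrosomal genes that fell were strong in PS, with fold enrichments between 21.8 and 52.1. Adam2, a subunit of the sperm surface protein fertilin, went from 42.0 and 52.1 to 10.99 and 6.39, a change of -2.38 ± 0.16 (limma, adjusted p = 1.47e-17). Adam3, Adam32, Spink2, Crisp2, Dpy19l2, Gopc, Zpbp and Zpbp2 also fell, with log2 changes between -2.26 and -0.68. The genes of this list thus moved in both directions, and the 18 that rose had PS values between 4.38 and 20.8.

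In the flagellar list of outer dense fibre, fibrous sheath and motility genes, 34 of 37 were kept, and 16 rose and 7 fell, with a median of 0.52 (0.41 to 0.74 over the other settings). Odf1, the main outer dense fibre protein, went from 17.7 and 14.8 to 37.4 and 31.9, a log2 change of 1.20 ± 0.14 (limma, adjusted p = 1.01e-09), or 0.85 and not called with the mean of all peaks of the locus. Akap3, an anchoring protein of the fibrous sheath, went from 9.05 and 9.87 to 22.0 and 14.5. Catsper1, a pore subunit of the sperm calcium channel, went from 7.00 and 7.67 to 17.5 and 15.1, and Gapdhs, the glycolytic enzyme bound to the fibrous sheath, went from 13.6 and 19.2 to 30.9 and 26.1. All RS values of these 4 genes lay above their PS values. Catsper3, Catsper4 and Efcab9 of the same channel rose as well, whereas Catsper2, Catsperg2 and Tex40 fell, and Catsperb was lost, with 26.8 and 35.6 in PS and a peak of 4.88 in RS replicate 1 alone. Of 11 testis-specific kinases, all kept, 6 rose and 2 fell (median 0.67). Tssk1 and Tssk2 share a locus, at 21.4 and 19.7 in PS and 34.6 and 30.8 in RS, and Tssk3 went from 22.6 and 18.6 to 40.7 and 37.7.

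Spermatid nuclear proteins gave no common direction, with 4 rises and 4 falls among 14 kept genes. Their median was 0.24 and ran from 0.10 to 0.93 over the 11 other settings, with 0.93 for the mean of all peaks of a locus. Tnp1, transition protein 1, went from 9.47 and 8.22 to 22.0 and 19.7, a log2 change of 1.34 ± 0.18 (limma, adjusted p = 1.94e-08). H1fnt and Hils1, linker histones of spermatids, and Chd5, a chromatin remodeller needed for histone removal, rose by 1.32, 1.00 and 1.21. Prm1, Prm2, Prm3 and Tnp2 lie in a single acetylated locus (chr16:10780210-10801729), at 27.2 and 35.1 in PS and 36.6 and 31.3 in RS. These values of its strongest peak overlap (change 0.24 ± 0.13). By that peak the protamine cluster was strongly acetylated in PS already. Hist1h2ba, a testis-specific H2B, H2afx, Brdt and Hspa2 fell.

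**Figure D4:**
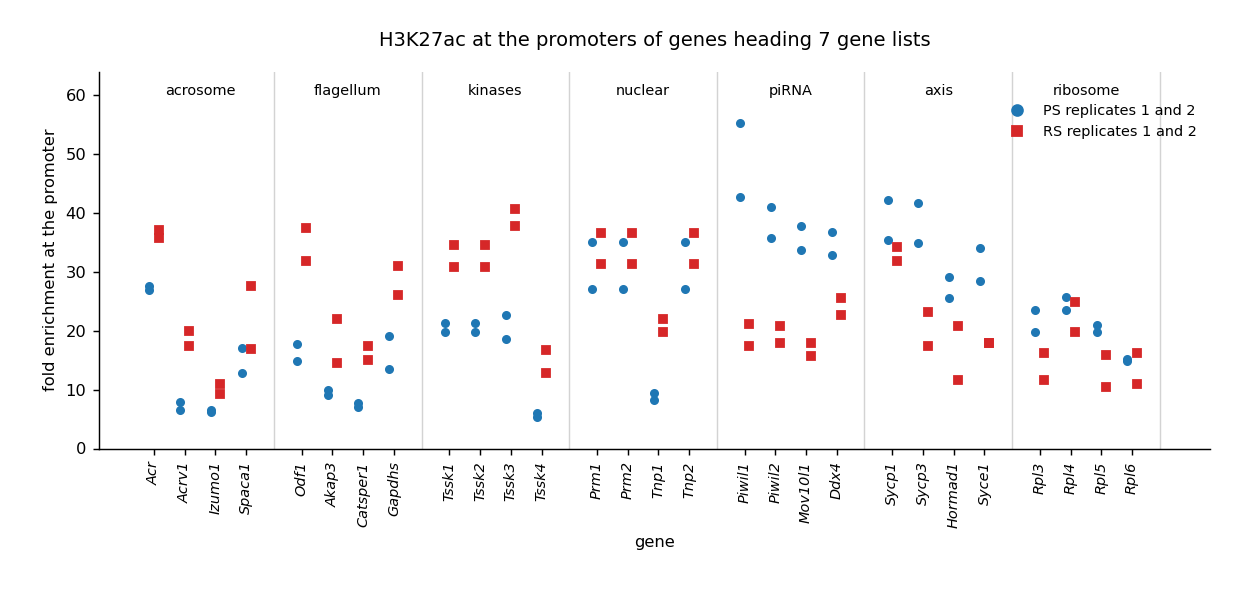
Fold enrichment of H3K27ac (vertical axis) in each of 2 PS replicates (circles) and 2 RS replicates (squares) at promoters of the first 4 genes of 7 gene lists (horizontal axis); Prm1, Prm2 and Tnp2 share a locus, as do Tssk1 and Tssk2. Acrv1, Odf1, Tssk3 and Tnp1 are higher in both RS samples, and Piwil1, Piwil2, Mov10l1 and Sycp3 are lower in both.

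Among the meiotic lists, the piRNA pathway had the highest share of falls (61.9% of kept promoters). Of its 21 kept promoters, 13 fell and 1 rose, with a median of -0.88; 7 to 15 fell under the other settings, and the median was then between -0.99 and -0.59. Piwil1 (MIWI), the Piwi protein that binds pachytene piRNAs, went from 42.8 and 55.4 to 21.2 and 17.4, a log2 change of -1.24 ± 0.13 (limma, adjusted p = 4.97e-11). Piwil2 (35.8 and 41.1 to 20.7 and 18.0) and the helicase gene Mov10l1 (33.7 and 37.8 to 17.9 and 15.7) fell likewise, and Ddx4, the germ cell helicase VASA, had a change of -0.42 that was not called. Tudor domain genes Tdrd1, Tdrd3, Tdrd5, Tdrd6 and Tdrd9 fell, with changes between -1.59 and -0.92. Mybl1, the gene of A-MYB, went from 36.2 and 43.8 to 19.12 and 14.5. The gene that rose was Gtsf1, a Piwi cofactor, from 13.6 and 17.0 to 24.8 and 22.1. With the mean of all peaks of a locus in place of the strongest, the falls at Piwil1, Piwil2 and Mov10l1 were 0.74, 0.58 and 0.59 and were not called.

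Synaptonemal complex and axis genes had 16 of 17 promoters kept, with 6 falls and 3 rises (median -0.33). Sycp3, an axis protein, went from 35.0 and 41.7 to 23.2 and 17.4, a change of -0.82 ± 0.13, and Hormad1 and Syce1 fell by 0.71 and 0.69; none of these 3 was called under quantile or loess normalization. Sycp1, of the transverse filaments, had 35.4 and 42.2 against 34.2 and 31.9 and was not called. The 3 that rose were Syce2, Rec8 and Smc3, of which Rec8 and Smc3 encode cohesin subunits. Among 20 kept recombination promoters 4 fell and 1 rose (median -0.16, and 0.0043 with loess normalization). The crossover factor Mlh3 fell from 25.9 and 26.9 to 9.36 and 7.55, and the recombinase Dmc1 rose from 7.00 and 6.03 to 13.0 and 10.4. Spo11, which makes the meiotic double-strand breaks, was not called.

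Promoters of the translation and protein degradation machinery were kept throughout. All 74 cytoplasmic ribosomal and all 34 proteasome promoters were kept, with 2 rises and 15 falls in the former (median -0.21, with the sign reversed in 1 of 11 settings, at 0.051) and 0 rises and 11 falls in the latter (median -0.24; 0 to 2 rises and 5 to 12 falls in the other settings). Rpl3, Rpl4, Rpl5 and Rpl6 were not called. Proteins of the axoneme, the microtubule core of the flagellum, had 31 of 38 promoters kept, 8 falls and 3 rises, with a median of -0.20 that changed sign under quantile and loess normalization. Rsph1, of the radial spoke, fell from 44.0 and 51.0 to 20.3 and 18.0 (a fall that was not called with the mean of all peaks), and the dynein gene Dnah8 was lost, with 11.1 and 14.8 in PS and 5.22 in RS replicate 2 alone. In glycolysis, 3 of 19 kept promoters rose and 8 fell. The spermatid forms Gapdhs and Aldoart2 rose together with Hk1, and Tpi1, Pgam2, Eno1, Eno3, Ldha, Pfkm, Pfkl and Pfkp fell.

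Of 20 genes of spermatogonia, the mitotic precursors, 6 had a kept promoter, 2 were lost, 7 had no region and 5 were gained, against 1.85% of all genes gained. The gained ones were Stra8, Sohlh1, Sohlh2, Lin28a and Pou5f1, with RS fold enrichments between 3.48 and 7.32. Stra8, which drives entry into meiosis, had no PS peak and 7.32 and 5.22 in RS. Sohlh1, a factor of differentiating spermatogonia, had 4.88 and 3.48 in RS and a PS peak of 4.53 in replicate 1. Id4, of spermatogonial stem cells, fell from 17.7 and 24.1 to 6.51 and 4.64.

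CpG content was low at the promoters that rose, and at those that fell it was close to that of all kept promoters. A promoter was called CpG-rich when the ratio of observed to expected CpG in its window of 300 bases was above 0.6. The share of CpG-rich windows was 66.6% at kept, 49.2% at lost and 12.7% at gained promoters. Within kept promoters it was 17.0% for those higher in RS and 68.3% for those lower. The median ratios were 0.26 and 0.72, against 0.71 over all kept promoters. Of 6340 CpG-rich kept promoters, 168 (2.65%) rose and 1980 (31.2%) fell, whereas 819 (25.8%) of 3177 CpG-poor ones rose and 919 (28.9%) fell. The contrast in rises was present in each quartile of mean level (2.14% to 2.96% against 16.7% to 30.4%) and under each of the other settings of the fit (1.64% to 5.50% against 23.2% to 27.3%). Of all promoter loci, 1.23% of 7210 CpG-rich and 13.3% of 4592 CpG-poor ones were gained. The gene lists showed the same for rises: 8 of the 56 listed promoters that rose were CpG-rich, against 56 of the 93 that fell and 112 of the 165 that were not called. The 8 were 2 of 18 acrosomal rises, all 3 of the axis gene rises, 2 of 16 in the list of outer dense fibre, fibrous sheath and sperm motility, and 1 of 2 ribosomal protein rises.

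RefSeq promoter sequences (250 bases before to 50 after the start site, GRCm38.p6) matched 7941 of 10724 genes with a kept promoter, 855 of 1251 with a lost and 288 of 410 with a gained one. The median number of CG dinucleotides was 21, 15 and 5, against 7 over all 31396 autosomal promoters of the table. The letters CCGCCC, on either strand, were in 62.9% of kept, 59.8% of lost and 34.0% of gained promoters, and in 36.0% of all. TATAAA was in 6.24% of kept, 7.86% of lost and 13.2% of gained promoters, and in 13.6% of all. The letters TGACG, a short form of the site of CREM and related factors, were in 24.2% of promoters that rose and 29.7% of those that fell. Both shares lay below those of kept promoters (33.1%) and of kept promoters that were not called (36.25%), and above the 21% of all.

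At distal loci the hexamer CAACTG, searched on both strands, was most frequent among losses. It was in the window of 28.9% of 4633 lost intron and intergenic loci (27.7 to 30.3), 17.8% of 3772 kept ones and 15.8% of 7016 gained ones (14.99 to 16.7), and in 20.3% of all distal loci. Among lost loci the share was 38.1% in the strongest quartile and 23.8% in the weakest, whereas among gained loci it was 14.6% and 16.8%. Kept distal loci that fell held it in 23.9% of windows and those that rose in 16.4%. In windows with less than 50% of repeat-masked bases the shares were 28.7% for lost and 16.5% for gained loci. The longer letters AACNGTC were in 16.9% of lost and 8.91% of gained distal windows. Such a match describes letters and shows no binding.

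RNA of the same stages in Rnf8- and Scml2-dKO cells, a readout that the region rule did not use, was set beside the wild-type promoters. edgeR called 4149 of 14167 autosomal genes (29.3%) higher in dKO RS than in dKO PS and 4036 (28.5%) lower. Of 310 tested genes with a gained promoter, 238 (76.8%, 71.8 to 81.1) were higher and 10 lower, with a median log2 change of 2.60. Genes with a gained promoter were weakly expressed, with median RPKM values of 0.485 and 0.526 in PS and 1.90 and 1.99 in RS. With a filter of at least 1 count in any sample, 257 of 395 were higher. Of 2620 tested genes with no promoter region, 46.5% were higher and 17.2% lower, with a median of 0.84. Of 990 genes with a kept promoter that rose, 839 (84.7%) were higher and 32 lower, and their median RPKM went from 4.93 and 6.11 to 23.7 and 22.3. Of 3116 genes with a kept promoter that fell, 1400 (44.9%) were lower and 298 (9.56%) higher, with a median of -0.53. Of 961 genes with a lost promoter, 244 (25.4%) were higher and 204 (21.2%) lower, with a median of 0.16, and they were weakly expressed, with median RPKM values of 0.708 and 0.572 in PS and 0.769 and 0.738 in RS. Without the RNA sample of RS replicate 1, 152 of the 961 were higher, and 3446 of all genes. In bulk RNA, fewer cells of a type and less RNA per cell cannot be told apart.

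Ordered by the change of the promoter, RNA changed most at the top. Among the 1034 of 10341 genes with the highest promoter change, whose median promoter change was 1.07, 84.3% were higher in RNA and the median RNA change was 2.78. In the next 1034 genes it was 0.35, and in the 1035 genes with the lowest promoter change, at a median of -1.29, it was -0.58 and 48.1% were lower. Pearson's r across these genes was 0.554 and Spearman's rho 0.427, as a description, since genes are not independent replicates and the genotypes differ. Genes nearest to gained distal loci only were higher in 38.9% of 1662 cases, and those nearest to lost distal loci only in 27.3% of 961.

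**Figure D5:**
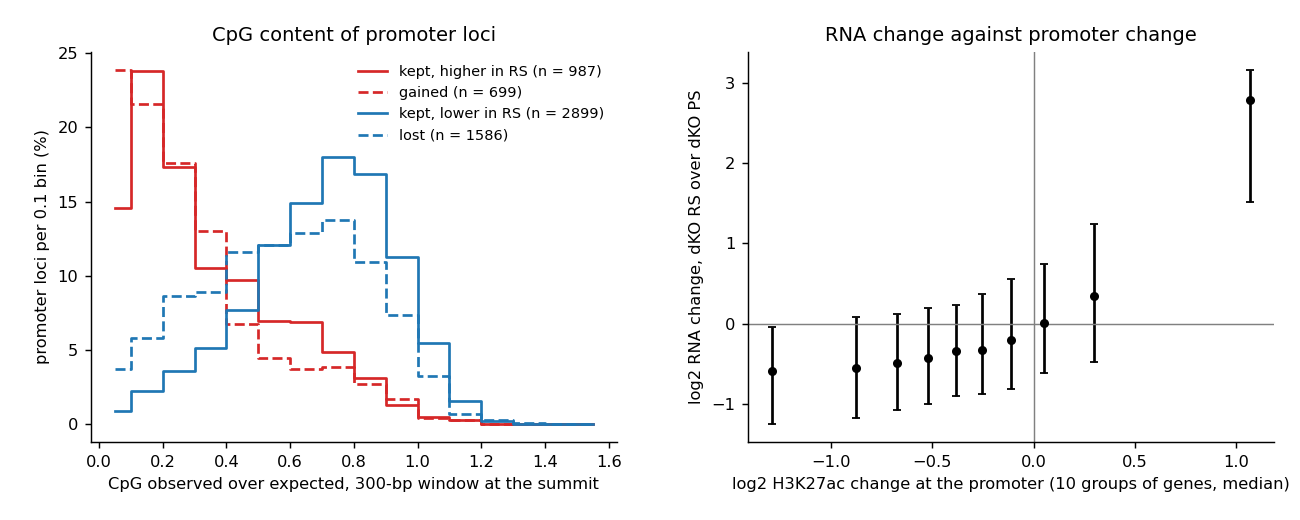
Left, percentage of promoter loci (vertical axis) by the ratio of observed to expected CpG in the 300-base window at the summit (horizontal axis, bins of 0.1). Rises and gains lie at low ratios (medians 0.26 and 0.23). Falls and losses have medians of 0.72 and 0.59, against 0.71 over all kept promoters. Right, median log2 RNA change between dKO RS and dKO PS (vertical axis, bars from the lower to the upper quartile of genes) against the median promoter change in 10 groups of genes ordered by that change (horizontal axis); the highest group stands at 2.78.

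In the gene lists, rises of the promoter went with an RNA call of the same direction more often than falls did. Of 56 listed genes whose promoter rose, 51 were higher in RNA and 0 lower, and 5 were not called. Of 92 tested genes whose promoter fell, 36 were lower, 5 higher and 51 not called. Of 165 listed genes whose kept promoter was not called, 46 were lower, 22 higher and 97 not called in RNA. Odf1 had an RPKM of 59.4 and 81.1 in dKO PS and 884 and 915 in dKO RS, a log2 change of 3.72 ± 0.18 (edgeR, adjusted p = 2.09e-06). Piwil1 had 286 and 326 in PS and 9.91 and 17.6 in RS, a change of -4.45 ± 0.26 (edgeR, adjusted p = 2.90e-06). In the acrosomal list, 17 of the 18 genes whose promoter rose were higher in RNA, with Pcsk4 as the exception, whereas of the 9 whose promoter fell, 3 were lower (Adam2, Spink2 and Gopc) and 6 were not called. Prm1, whose locus was not called in the test of its strongest peak, had an RPKM of 104 and 166 in PS and 3576 and 3640 in RS.

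Markers of Leydig cells, the steroid-producing cells between the tubules, moved with stage in the RNA. Their 7 defining genes summed to an RPKM of 734 and 549 in dKO PS and 69.3 and 43.4 in dKO RS, and all 9 genes of the longer Leydig list were lower in RS, of which 8 had no H3K27ac region in either stage and Nr5a1 was lost. Macrophage and blood markers summed to 1.09 and 1.20 in PS and 12.6 and 10.98 in RS, with no H3K27ac region at any of 10 promoters. Sertoli markers summed to 63.4 and 29.3 in PS and 33.0 and 17.4 in RS, with overlapping groups. Their part in the RNA results was not tested.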

How the data were processed

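H3K27ac peak lists of 4 wild-type samples and RNA tables of 4 dKO samples were used. Per the labels, the authors aligned ChIPmentation reads to mm10 with Bowtie 1.1.1 and ran MACS2 2.1.0.20140616 on each sample separately, with no input sample among the files used here. The deposited lists give each summit's pileup (signal, in fragments), its fold enrichment (a ratio to 1 constant background per sample) and −log10 p and q values. The authors aligned RNA reads with STAR 2.4.2a, and the deposited tables give estimated read counts and RPKM per isoform, which were summed to genes. Read depth of the ChIP samples is not given in the sources used here, and RNA samples had 9655405 to 12289694 reads on genes.

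Peaks overlapping by at least 1 bp were merged as described in the report. Levels were compared with limma 3.58.1 (trend and robust) and RNA with edgeR 4.0.16 (quasi-likelihood, TMM, a minimum of 10 counts in any 2 samples), both with Benjamini-Hochberg adjustment over all features, an adjusted p under 0.05 and a fold of at least 1.5. The study compared common peaks with MAnorm, which needs aligned reads, so overlap and centring on common loci were used here. Both fits and the interval steps were checked on simulated data. Sequences came from GRCm38.p6, whose 19 autosomes were compared with the coordinates of the lists, and from the RefSeq promoter table. Figures were drawn with matplotlib 3.10.9.

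Loci named are the 8 kept promoters with the largest rise and the 8 with the largest fall, the 8 lost and 8 gained promoters and 4 lost and 4 gained distal loci with the highest fold enrichment and no peak in the other stage, the 3 widest kept, lost and gained loci, and the first 4 genes of each of 16 gene lists. Other listed genes named were chosen after their values were seen, and some items are not reported here. The members and the lists were chosen with earlier results of these data known. Alternatives covered peak thresholds, overlap, normalization, filters, DESeq2 1.42.0 for RNA and leaving out each sample. Wilson intervals cover counting error only. RNA was fitted over all genes, and counts of calls are over autosomal ones.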

Additional observations from a re-analysis of the deposited data

How the results depend on the processing

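Which loci counted as kept, lost or gained depended on how regions were defined. Promoters had the highest retention of the 5 classes under each setting below, whereas intron regions, kept above intergenic ones as reported (56.1% and 53.0%), were kept below them with reciprocal overlap, with a peak in either replicate (58.7% and 59.7%), under the replicate block (55.5% and 55.9%) and without PS replicate 1 (47.6% and 48.8%). With −log10 q of at least 5, RS had 16410 regions, 12109 PS regions were kept and 4975 RS regions were gained, and promoters formed 68.4%, 29.9% and 9.93% of kept, lost and gained regions (54.4%, 19.98% and 6.70% as reported). With −log10 p of at least 5 these shares were 59.2%, 22.4% and 7.72%. A reciprocal overlap of 50% gave 10756 kept (40.8%), 15577 lost and 15733 gained regions. It kept 69.9% of promoter, 21.6% of upstream, 22.3% of exon, 13.2% of intron and 18.98% of intergenic regions, with promoter shares of 75.4%, 22.4% and 14.7%. A peak in either replicate gave 50297 PS and 74460 RS regions, 34729 kept, 15568 lost and 46179 gained, with promoter shares of 36.9%, 11.7% and 5.46%. With 38519 peaks per sample the promoter share of kept regions was 56.7%.

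The replicate block, which compares samples of equal number, gave averages of 42348 PS and 58827 RS regions, 27696.5 kept, 14651.5 lost and 34152 gained, with promoter shares of 43.0% and 15.6% of kept and lost regions. Deviations of same-numbered samples from their stage means correlated at r = 0.0033, so the numbers do not pair the samples. In limma the block changed no count of calls by over 1.5 times.

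Leaving out 1 sample gave 26333 to 46177 PS regions, 26489 to 72928 RS regions, 18311 to 27293 kept, 4832 to 18884 lost and 8407 to 50672 gained. RS replicate 1 alone (without RS replicate 2) gave the 4832 lost and 50672 gained, RS replicate 2 alone gave 22439 gained, and PS replicate 1 or 2 alone gave 13500 or 18884 lost. Retention was then 78.8% to 94.7% at promoters and 48.8% to 67.1% in intergenic regions, and promoter shares were 42.4% to 54.5%, 12.7% to 20.01% and 5.88% to 6.96%. Leaving out 1 RNA sample, with the regions as reported, gave 152 to 294 lost-promoter genes higher in RNA. The cause of these shifts was not tested, apart from the sample being left out.

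The median change of kept promoters and of kept intergenic loci was -0.42 and 0.67 without centring, -0.23 and 0.63 with quantile and -0.19 and 0.56 with loess normalization, and -0.27 and 0.87 for loci with a mean of at least 5. It was 0.74 for intergenic loci with the mean of all peaks, and -0.32 to -0.31 and 0.71 to 0.78 when 1 sample was left out. Among the loci and list genes that were named by a fixed rule, no call changed direction under these settings. The other genes named, chosen after their values were seen, were not covered by this check of direction. With the mean of all peaks, 1 of the 15473 kept loci had its call reversed.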

Other observations

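Gene families were grouped by the letters that begin their symbols, after the values were seen, and their counts are given with no test. Over all kept promoters, 30.4% fell and 9.54% rose, and 29.3% of all genes were higher in dKO RS RNA. Of 67 histone genes (Hist), 16 lost their promoter region in RS, 0 gained one, and 16 of the 39 kept fell while 0 rose, against 5.68% of all genes lost. Of 33 Adam genes, 7 gained a promoter region (21.2%, against 1.85% of all genes), and of the 16 kept, 4 rose and 7 fell. Spata genes, named for spermatogenesis, had 24 of 26 promoters kept, of which 10 rose and 1 fell, and the other 2 were gained; 18 of 25 were higher in dKO RS RNA. Zinc finger genes (Zfp) had 249 kept promoters, of which 88 fell and 9 rose, and 35 of 349 were lost. Zbtb and Cdk genes had 13 falls among 36 and 12 among 21 kept promoters, with 0 rises in both.

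The widest kept loci were intergenic. One nearest to C2cd4b (chr9:67710308-67739178) had fold enrichments of 46.1 and 53.2 in PS and 34.2 and 27.3 in RS, and 2 adjacent loci nearest to Grm4 (chr17:27292414-27322035 and chr17:27322217-27350948) had 24.7 and 21.4 against 23.2 and 19.2, and 45.7 and 46.0 against 19.5 and 15.1. The widest lost locus, nearest to Gm21269, had 15.2 and 15.3 in PS and a peak of 3.25 in RS replicate 1 alone, and RPKM of Gm21269 went from 88.3 and 99.3 to 1.67 and 2.68. The widest gained locus, nearest to Hnf4g, had 12.6 and 11.03 in RS and was also a peak in both PS replicates (4.53 and 4.38) that did not overlap each other. The other wide loci were lost ones nearest to Prmt8 (9.47 and 10.4 in PS) and Tspan11 (9.05 and 9.87), and gained ones nearest to Igsf9 and Mir146 (10.99 and 8.71 in RS at both). All of them also held peaks of the other stage: 3.25 in RS replicate 1 at Prmt8, 4.07 and 3.48 in RS at Tspan11, 4.94 and 4.93 in PS at Igsf9, and 3.29 in PS replicate 2 at Mir146.

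Loci with the highest fold enrichment in both stages, chosen after their values were seen, lay nearest to B230118H07Rik (2 loci), Cdon and Chl1, with values between 51.3 and 96.9 in all 4 samples and log2 changes between 0.04 and 0.11. Repeat-masked bases formed 37% and 100% of the B230118H07Rik windows, 100% of the Cdon window and 29.7% of the Chl1 window. No input sample was among the files used, and the part of repeats in these values was not tested.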
